A study of Mus musculus with 6 samples.

Results

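Expression of 35 genes known as estrogen-responsive in breast epithelium was compared between J110 and SSM3, both mouse mammary tumour cell lines. The genes were chosen by name, as textbook targets of the estrogen receptor, with earlier results of these libraries known, and no measured value enters the rule. All 35 were found among the 52636 genes of the deposited count table, the carbonic anhydrase 12 gene under its mouse symbol Car12. RNA came from 3 biological replicates of each line, was sequenced from its 3′ ends (QuantSeq), and the reads counted per gene were deposited without normalisation.

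J110 cells derive from mice with an AIB1 cDNA transgene driven by the MMTV LTR, a promoter active in mammary epithelium, and SSM3 cells derive from mammary tumours of mice of another genotype. Each is a single line, so line, genotype of origin and mouse background cannot be told apart. The recipes of both media list foetal bovine serum, insulin and hydrocortisone, a glucocorticoid, and neither lists added estradiol. The amount of serum and of CO2 differed with the line, so culture and line cannot be told apart either. No library was treated with estrogen or tamoxifen, and the comparison is therefore one of basal levels. It bears on the question of the study, whether the estrogen receptor pathway is intact in SSM3 cells.

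Estrogen binds ERα, the product of Esr1, which then binds DNA at an estrogen response element, a palindrome of paired half-sites, or is tethered through other factors, and recruits coactivators. In luminal breast cells this raises transcripts of secreted proteins such as trefoil factor 1, of cofactors such as GREB1 and of transporters, channels and enzymes. Several of the same genes also answer to other receptors, with Fkbp5 and Sgk1 being textbook glucocorticoid targets and Tiparp a target of the aryl hydrocarbon receptor.

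The J110 libraries held 5209740 to 5416305 counts each, and the SSM3 libraries 4200785 to 4792941. One ribosomal RNA locus took 15.1% to 17.2% of the counts in J110 and 0.779% to 1.27% in SSM3, and leaving it out of the library sizes kept the split of the estrogen-responsive genes described below. Of the 12 epithelial marker genes examined, 11 were higher in SSM3 and 1 was lower. Epcam, the epithelial adhesion molecule, had 2, 1 and 7 counts in J110 against 2376, 2404 and 2412 in SSM3, and Cldn7, a claudin, had 0, 0 and 1 against 564, 391 and 586, while Krt18, a simple epithelial keratin, went the other way with a log2 fold change of -0.56. Summed fibroblast markers lay between 1.54 and 4.38 CPM in J110 and between 1337 and 1480.1 CPM in SSM3, nearly all of it Dcn, with Col1a2 and Lum at 0 in every library. Summed endothelial markers lay between 158 and 181 CPM in J110 and at most at 0.425 CPM in SSM3, nearly all of it Cdh5, with Tie1 and Emcn at 0 in every library. Leukocyte markers summed to between 29.2 and 37.0 CPM in J110 and between 14.7 and 17.6 CPM in SSM3, with Itgam at 0, and Cd68 was the called gene, lower in SSM3. Csf1r made up most of the SSM3 sum and showed no call, at a mean of 14.3 CPM in J110 and 14.2 CPM in SSM3. The part of other cells in the results below was not tested, and fewer cells of a type and less RNA per cell cannot be told apart in these bulk libraries. Genes near absent from a line had most counts there in J110 replicate 3, at 0.352% of the other line's level over 74 such genes, and in SSM3 replicate 2, at 0.438% over 53 genes.

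The labels could be checked in part only. Counts on Ncoa3, the AIB1 gene, were 110, 106 and 102 under the label J110 and 181, 199 and 186 under the label SSM3, and so were not higher in the line with the transgene. Whether the transgene carries the mouse 3′ end is not given in the sources used here, and a 3′ tag outside the altered part checks nothing. SSM3 is known as a luminal line that carries ERα, and both Epcam and Esr1 had more counts in every library labelled SSM3 than in any labelled J110, which is the way the labels run. J110 and SSM3 below stand for the labels of the libraries.

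The 250 bases before the annotated starts were searched for the motifs of the receptors named above. RefSeq start windows of the GRCm38.p6 assembly were found for 28 of the 35 genes, 43 windows in all. All 27025 genes with a window had 32851, fewer per gene, so the shares below compare unequal lengths of sequence. The full palindrome, GGTCA followed after 3 free bases by TGACC, was in none of the 28 genes, and in 0.0666% of the 27025 genes with a window. The half-site GGTCA, which is also part of the palindrome, was in 13 of the 28 genes on either strand, and in 38.4% of all genes. Of the genes with a window that were higher in SSM3, 4 of 10 held a half-site, and of those that were lower 3 of 7 did. A pattern of the glucocorticoid response element, GNACA followed after 3 free bases by TGTNC, was in 1 of the 28 genes, Sgk1, against 0.44% of all genes. The core GCGTG of the aryl hydrocarbon receptor was in 13 of the 28 genes and in 30.9% of all genes, and the GC box GGGCGG, which Sp1 binds, in 18 of the 28 and in 35.4% of all. A match is a description of the letters, and a window of this length does not hold the distant enhancers through which ERα often acts.

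The windows of 4 genes are shown because the results turn on these genes and because each holds at least 1 of the motifs, and were picked after the values were seen. They are printed 5′ to 3′ on the strand of the gene and end at the base before the start, with the motif or its reverse complement in capitals, which mark the half-site in Greb1 and Rapgefl1, the glucocorticoid pattern in Sgk1 and the GCGTG core in Tiparp. Greb1 is shown at the outer of its 2 starts (chr12:16800887-16801136, reverse strand), Rapgefl1 at its single start (chr11:98836535-98836784, forward strand), Sgk1 at the one of its 6 starts that holds the element (chr10:21993640-21993889, forward strand), and Tiparp at its single start (chr3:65528197-65528446, forward strand).
Greb1: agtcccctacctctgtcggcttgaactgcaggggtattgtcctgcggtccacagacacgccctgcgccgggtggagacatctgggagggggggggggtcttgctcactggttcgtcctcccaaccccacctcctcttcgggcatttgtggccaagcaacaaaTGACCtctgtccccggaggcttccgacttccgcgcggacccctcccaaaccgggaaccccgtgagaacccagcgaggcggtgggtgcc
Rapgefl1: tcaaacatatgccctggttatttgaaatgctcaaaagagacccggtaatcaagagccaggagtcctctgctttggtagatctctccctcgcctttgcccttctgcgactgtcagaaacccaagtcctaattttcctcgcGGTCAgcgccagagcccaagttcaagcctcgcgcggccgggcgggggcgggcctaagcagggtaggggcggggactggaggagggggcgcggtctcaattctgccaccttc
Sgk1: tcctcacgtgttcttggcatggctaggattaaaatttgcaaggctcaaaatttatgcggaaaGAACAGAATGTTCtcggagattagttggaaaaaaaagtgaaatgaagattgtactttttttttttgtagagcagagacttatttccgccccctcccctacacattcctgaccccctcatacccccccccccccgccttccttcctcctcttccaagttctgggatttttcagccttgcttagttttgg
Tiparp: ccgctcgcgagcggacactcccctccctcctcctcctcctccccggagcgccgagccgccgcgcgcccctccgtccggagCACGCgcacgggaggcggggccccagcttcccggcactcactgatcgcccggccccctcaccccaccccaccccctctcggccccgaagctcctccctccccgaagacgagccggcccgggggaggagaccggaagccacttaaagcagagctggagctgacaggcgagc
The half-site shown lies 88 bases before the outer start in Greb1 and 111 bases before the start in Rapgefl1, and these genes went in opposite directions. The other start of Greb1 has half-sites 194 and 85 bases before it.

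The estrogen-responsive genes did not move one way. Of the 35 genes, 22 had enough counts to be tested, and of these 11 were higher and 9 were lower in SSM3, with 2 showing no call. All genes tested were also split, 38.6% higher and 39.2% lower, so a split is not particular to these genes. The 4 largest rises were in Rapgefl1, Stc2, Celsr2 and Olfm1, and the 4 largest falls in Nbl1, Greb1, Tiparp and Fkbp5. Of the other 13 genes, 4 had no count in any library and 9 had too few. Trefoil factor 1, among the best known estrogen targets, had no count in SSM3.

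A call is an adjusted p below 0.05 from edgeR's quasi-likelihood test with Benjamini-Hochberg adjustment over all 12284 genes tested, and the SE given after a log2 fold change is its standard error in that fit. Levels in CPM, reads counted for a gene per 1000000 counted after TMM scaling, are given as mean ± SD over the replicates of a line. The lines differed across the transcriptome, with 77.9% of all genes tested called, 38.6% higher and 39.2% lower in SSM3. Against this background the 20 of 22 called genes (90.9%) are not a result about estrogen targets by themselves, the more so as a gene high in a single line passes the count filter through that line. The median log2 fold change of the 22 was 0.20, and of all genes tested -0.01. The median size of the change was 1.65 on the log2 scale, against 0.84 over all genes tested. Of the 22 genes, 9 were called with at least a 4-fold change, 5 higher and 4 lower, where 21.7% of all genes tested did so, 10% higher and 11.7% lower. No J110 library reached into the range of the SSM3 libraries in any of the 20 called genes, a separation also found in 79.6% of all genes tested. Scaling by library size alone moved the median of all genes from -0.01 to 0.16 and left the split of the estrogen-responsive genes at 11 and 9.

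**Figure D1:**
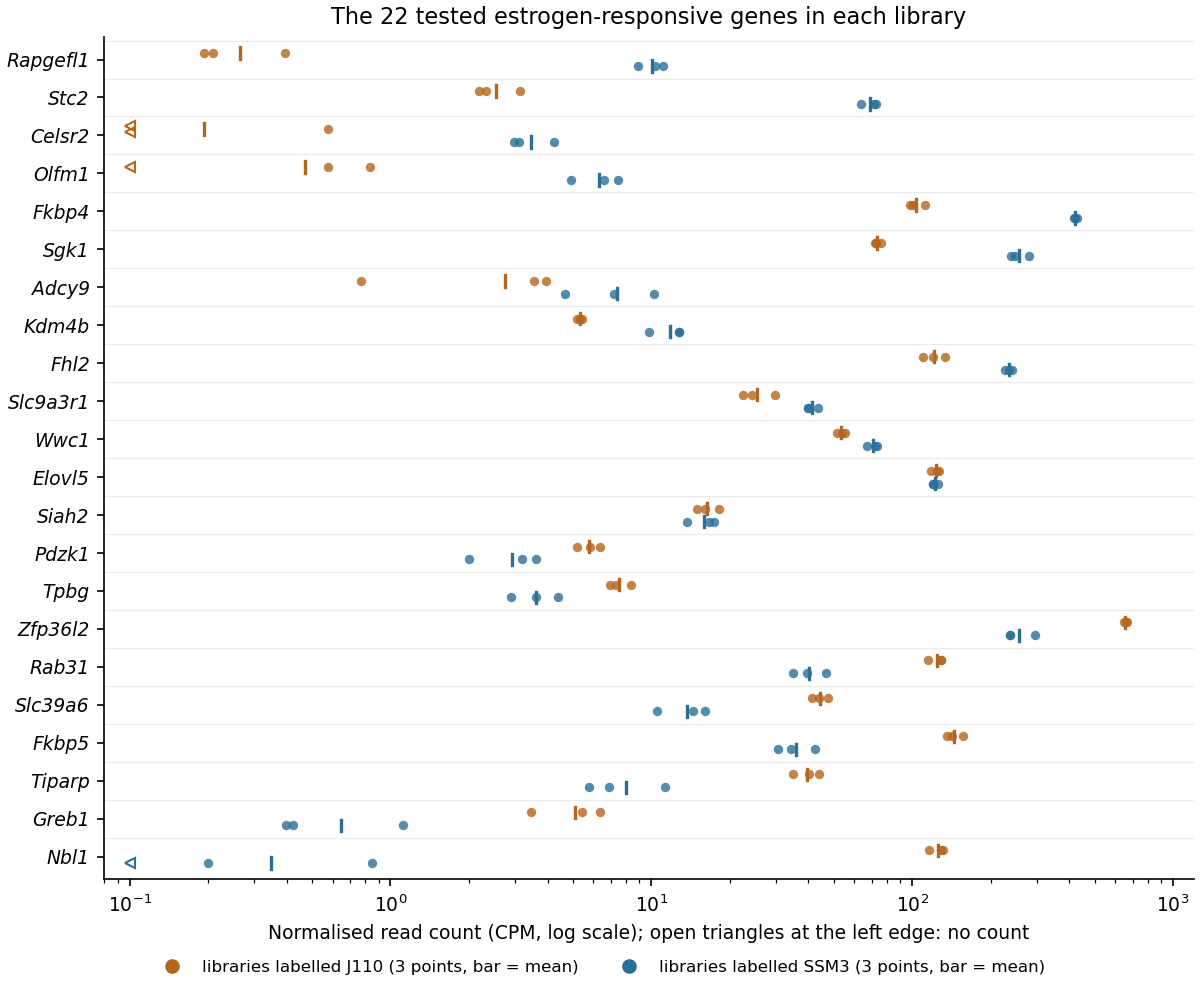
Normalised read count in CPM (horizontal, log scale) of the 22 tested estrogen-responsive genes in each of the 6 libraries, ordered by log2 fold change, with points for libraries, bars for line means and open triangles for libraries with no count. The lines separate in 20 genes and overlap in Siah2 and Elovl5. Within J110, replicate 1 of Adcy9 lies well below the other libraries.

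Genes of cofactors and of regulators of protein or mRNA turnover were split. Greb1, an estrogen-induced cofactor of ERα (ENSMUSG00000036523, chromosome 12 of mm10 from 16670615 to 16800886), had 18, 32 and 26 counts in J110 against 5, 2 and 2 in SSM3. Every SSM3 library was below every J110 library, at levels of 5.07 ± 1.46 CPM against 0.645 ± 0.406 CPM (n = 3 per line), and the log2 fold change was -2.95 (SE 0.44, edgeR adjusted p = 1.26e-05). Without SSM3 replicate 1, which held 5 of the 9 counts in SSM3, it was -3.54, the far end of a range from -2.69 when each library was left out in turn. The antisense gene Gm48140, which shares 736 exon bases with Greb1, had 1 count in all libraries together.

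Tiparp, an ADP-ribosyltransferase that dampens the aryl hydrocarbon receptor, had 227, 176 and 193 counts in J110 against 31, 53 and 29 in SSM3. It fell from 39.6 ± 4.51 to 7.98 ± 2.90 CPM (n = 3 per line), a log2 fold change of -2.31 (SE 0.19, edgeR adjusted p = 1.25e-08). The gene 4931440P22Rik on the other strand shares 223 exon bases with it and had between 8 and 13 counts per library. Zfp36l2, which binds AU-rich elements and speeds mRNA decay, had the highest counts of the set in J110, with 3441, 3265 and 3157, against 1325, 1113 and 1192 in SSM3. Its log2 fold change was -1.36 (SE 0.084, edgeR adjusted p = 2.64e-10).

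In the same group Kdm4b and Fhl2 rose. Kdm4b, a histone H3K9 demethylase that acts with ERα, had 27, 27 and 26 counts in J110 against 44, 60 and 64 in SSM3, a log2 fold change of 1.14 (SE 0.21, edgeR adjusted p = 1.26e-04). Fhl2, a LIM-domain cofactor, rose from 121 ± 11.6 to 234 ± 7.35 CPM (n = 3 per line), or by 0.95 on the log2 scale (SE 0.083). For Siah2, a ubiquitin ligase, counts were 83, 92 and 72 in J110 and 75, 82 and 69 in SSM3. The libraries of the lines overlapped, and the log2 fold change was -0.045 with a SE of 0.16 (edgeR adjusted p = 0.804).

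The steroid receptor co-chaperones Fkbp4 and Fkbp5 went in opposite directions by nearly equal amounts. Their proteins, FKBP52 and FKBP51, bind HSP90 in receptor complexes, where FKBP52 aids and FKBP51 restrains the glucocorticoid receptor. Fkbp4 had 583, 497 and 481 counts in J110 against 1869, 2023 and 2107 in SSM3. Its level rose from 104 ± 7.61 to 422 ± 7.03 CPM (n = 3 per line), a log2 fold change of 2.02 (SE 0.076, edgeR adjusted p = 4.21e-13). Fkbp5 had 734, 688 and 750 counts in J110 against 154, 200 and 154 in SSM3, a fall from 145 ± 10.6 to 35.8 ± 6.06 CPM (n = 3 per line) and a log2 fold change of -2.02 (SE 0.11, edgeR adjusted p = 6.29e-11). No library of one line reached into the range of the other for either gene.

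The ratio of Fkbp4 to Fkbp5 counts within a library does not depend on the scaling between libraries. It was 0.794, 0.722 and 0.641 in J110 and 12.1, 10.1 and 13.7 in SSM3, a difference of 4.05 on the log2 scale. The separation of the ratio follows from the opposite directions of both genes, and an exact permutation test of 3 libraries against 3 cannot give a p below 0.1.

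Among secreted factors the largest fall of the set and one of its largest rises stood side by side. Nbl1, a BMP antagonist of the DAN family (ENSMUSG00000041120, chromosome 4 of mm10 from 139082284 to 139092993), had 683, 650 and 557 counts in J110 against 0, 4 and 1 in SSM3. The gene was expressed at 125 ± 8.17 CPM in J110 against 0.349 ± 0.444 CPM (n = 3 per line), and its log2 fold change of -8.38 (SE 0.24, edgeR adjusted p = 1.47e-14) was exceeded by 1.42% of all genes tested in that direction. Summed counts, each divided by the summed TMM-scaled library sizes of its line, gave a ratio of J110 to SSM3 of 358, with a 95% exact interval for counting error of 153 to 1103. The SSM3 replicate 2 library, named above for counts on genes near absent from SSM3, held 4 of the 5 counts, at 0.677% of the J110 mean, and without it the log2 fold change was -9.90, the far end of a range from -7.86 when each library was left out in turn.

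Stc2, stanniocalcin 2, a secreted glycoprotein (ENSMUSG00000020303, chromosome 11 of mm10 from 31357307 to 31370074), had 12, 11 and 15 counts in J110 against 286, 341 and 359 in SSM3. It rose from 2.54 ± 0.516 to 69.2 ± 4.78 CPM (n = 3 per line), a log2 fold change of 4.76 (SE 0.17, edgeR adjusted p = 1.49e-13). Olfm1, the secreted olfactomedin 1, had 3, 0 and 4 counts in J110 against 22, 35 and 33 in SSM3. Its summed counts, scaled in the same way, gave a ratio of 13.6 between SSM3 and J110 (95% exact interval 6.33 to 34.8), and its log2 fold change was 3.69 (SE 0.47, edgeR adjusted p = 2.38e-06), with 3.11 without J110 replicate 2 and 4.31 without J110 replicate 3.

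The trefoil factors, Agr2 and Cxcl12 were at or near 0. Tff1, a mucin-associated secreted peptide (ENSMUSG00000024032, chromosome 17 of mm10 from 31161395 to 31165277), had 10, 9 and 5 counts in J110 and none in any SSM3 library. Taking a floor of 3 counts per library, it was at least 2.50-fold lower in SSM3. The antisense gene Gm15318 shares 221 exon bases with Tff1 and had 8, 9 and 4 counts in J110 against none in SSM3, nearly the same numbers, so reads of these genes could not be told apart without strand and the Tff1 value is uncertain. Tff3, whose gene lies 31748 bases from Tff1, and Agr2, a disulfide isomerase of secretory cells, had no count in any library. Cxcl12, a chemokine, had 1 count in all, in SSM3. With a floor of 3 counts, between 0.578 and 0.668 CPM in these libraries, expression below that level was not detectable, and floors and intervals cover counting error only.

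**Figure D2:**
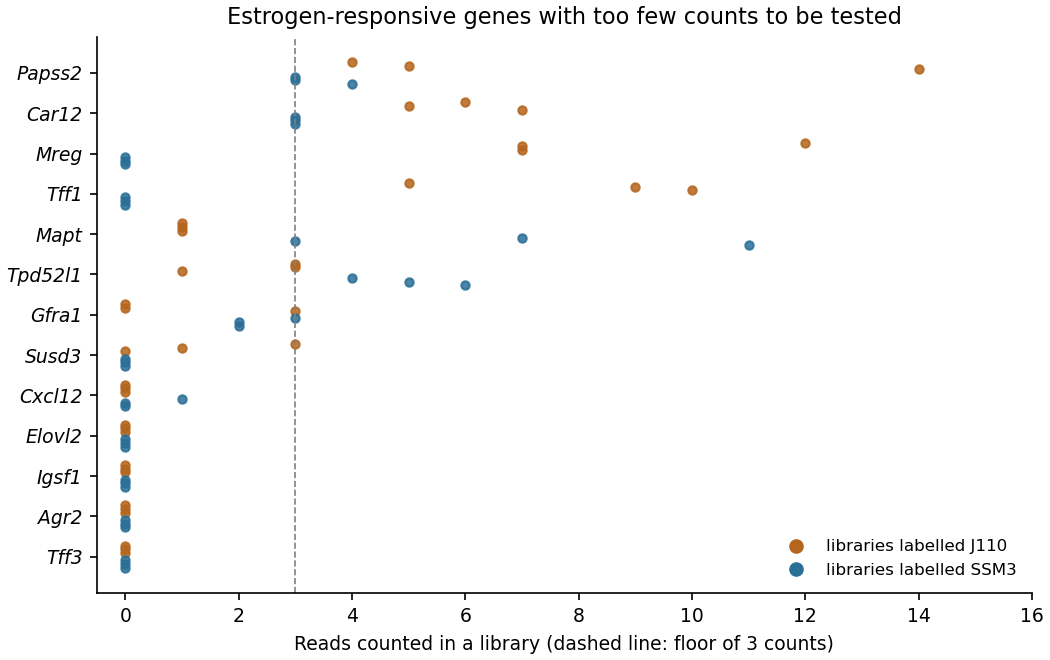
Raw reads counted (horizontal) for the 13 estrogen-responsive genes that did not pass the count filter, with a point for each library and a dashed line at the floor of 3 counts. Tff1 and Mreg have counts in every J110 library and none in SSM3, Mapt and Tpd52l1 lean to SSM3, and Tff3, Agr2, Igsf1 and Elovl2 sit at 0 throughout.

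Surface receptors and adhesion proteins were mostly low in both lines. Celsr2, an atypical cadherin of planar cell polarity, had 3, 0 and 0 counts in J110 against 14, 20 and 15 in SSM3. The scaled ratio over summed counts was 17.3 (95% exact interval 5.57 to 86.6), with a log2 fold change of 3.95 (SE 0.63, edgeR adjusted p = 2.49e-05) that became 7.06 without J110 replicate 1, where all J110 counts lay, and was 3.40 at the least when any other library was left out. Tpbg, the trophoblast glycoprotein that inhibits Wnt signalling, fell from 7.54 ± 0.728 to 3.63 ± 0.742 CPM (n = 3 per line), or by 1.04 on the log2 scale (SE 0.25, edgeR adjusted p = 0.00133). The transcript 9330154J02Rik on the other strand shares 898 exon bases with Tpbg, and had 14, 19 and 20 counts in J110 against 9, 14 and 8 in SSM3 beside 36, 37 and 40 and 13, 17 and 22 for Tpbg, which leaves the Tpbg value uncertain.

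Gfra1, the co-receptor for GDNF, had 3, 0 and 0 counts in J110 against 2, 2 and 3 in SSM3, all at or under the floor. Its antisense neighbour Gm16277 shares 416 exon bases with it. Susd3, a sushi-domain surface protein, had 0, 1 and 3 counts in J110 against none in SSM3, and Igsf1, an immunoglobulin-domain membrane protein, had none anywhere.

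Both genes of ion and metal handling had more counts in J110. Slc39a6, the zinc importer LIV-1, had 228, 208 and 227 counts in J110 against 47, 68 and 81 in SSM3. The level fell from 44.2 ± 3.12 to 13.7 ± 2.90 CPM (n = 3 per line), with a log2 fold change of -1.68 (SE 0.15, edgeR adjusted p = 2.71e-08). Car12, a membrane carbonic anhydrase, had 7, 5 and 6 counts in J110 and 3 in each SSM3 library. It was not tested, and the scaled ratio of J110 to SSM3 over summed counts was 1.89, with an interval of 0.807 to 4.78 that includes no difference.

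Of the membrane scaffolds, Slc9a3r1 and Wwc1 rose slightly and Pdzk1 fell. Slc9a3r1, the PDZ protein NHERF1 that anchors transporters at the apical membrane, had 154, 123 and 108 counts in J110 against 195, 188 and 201 in SSM3, a log2 fold change of 0.68 (SE 0.13, edgeR adjusted p = 1.13e-04). Wwc1, the Hippo pathway protein KIBRA, went from 53.5 ± 1.92 to 71.0 ± 3.26 CPM (n = 3 per line), a log2 fold change of 0.41, the smallest called in the set. Pdzk1, another PDZ scaffold, had 27, 32 and 28 counts in J110 against 9, 17 and 16 in SSM3, a log2 fold change of -0.97 (SE 0.28, edgeR adjusted p = 0.00532). With DESeq2 its adjusted p was 0.0502, and the alternatives spanned 0.00444 to 0.626. Gpr89 on the other strand shares 1333 exon bases with Pdzk1 and had between 119 and 161 counts per library, more than Pdzk1 in each, so the Pdzk1 value is uncertain.

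The fatty acid elongases and the sulfate donor synthase showed no call. Elovl5, which elongates polyunsaturated fatty acids, stood at 123 ± 4.05 CPM in J110 against 122 ± 2.94 CPM (n = 3 per line), a log2 fold change of -0.01 with a SE of 0.077 (edgeR adjusted p = 0.912). Elovl2, an elongase of longer chains, had no count in any library. Papss2, which makes the sulfate donor PAPS, had 14, 5 and 4 counts in J110 against 4, 3 and 3 in SSM3, and was not tested.

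The remaining genes encode signalling, vesicle and cytoskeleton proteins, and 3 of the 4 tested rose. Rapgefl1, a protein related to guanine nucleotide exchange factors (ENSMUSG00000038020, chromosome 11 of mm10 from 98836785 to 98853697), had 1, 2 and 1 counts in J110 against 40, 52 and 52 in SSM3. It had the largest rise of the set, with a scaled ratio over summed counts of 38.0 (95% exact interval 14.5 to 142) and a log2 fold change of 5.12 (SE 0.39, edgeR adjusted p = 4.17e-09), exceeded by 3.87% of all genes tested. This rank rests on few J110 counts. Leaving out each library in turn gave 4.93 to 5.48 for Rapgefl1, while Celsr2 reached 7.06 without J110 replicate 1. Sgk1, a kinase that regulates ion channels, had 378, 385 and 344 counts in J110 against 1112, 1124 and 1413 in SSM3. Its level went from 73.6 ± 2.27 to 256 ± 22.4 CPM (n = 3 per line), a log2 fold change of 1.80 (SE 0.085, edgeR adjusted p = 8.59e-12). Sgk1 and Fkbp5, both glucocorticoid targets, thus differed between the lines in opposite directions, in media that both contained hydrocortisone.

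Adcy9, an adenylyl cyclase that makes cAMP, varied widely between replicates, with 4, 20 and 17 counts in J110 against 46, 22 and 36 in SSM3. The libraries of the lines still did not overlap in CPM, and the log2 fold change was 1.41 (SE 0.40, edgeR adjusted p = 0.00437), within 0.95 and 1.77 when each library was left out in turn. Rab31, a GTPase of vesicle transport, had 669, 653 and 549 counts in J110 against 209, 186 and 175 in SSM3, a log2 fold change of -1.63 (SE 0.11, edgeR adjusted p = 5.24e-10).

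Mreg, melanoregulin, a protein of organelle transport, had 7, 7 and 12 counts in J110 against none in SSM3, at least 2.75-fold lower against the floor. Mapt, the microtubule protein tau, had 1 count in each J110 library and 11, 3 and 7 in SSM3, a scaled ratio over summed counts of 7.40 (95% exact interval 2.21 to 38.7). Tpd52l1, a coiled-coil protein of the TPD52 family, had 1, 3 and 3 counts in J110 against 6, 5 and 4 in SSM3, with a scaled ratio of 2.26 and an interval of 0.869 to 6.57. When every gene with at least 1 count was tested, Mreg (adjusted p = 1.93e-06), Tff1 (6.34e-06) and Mapt (0.00189) passed edgeR's test among the 9 genes with few counts, and the split was 12 higher and 11 lower of 31 genes tested. Over all genes with at least 1 count 49.2% were called, 24.1% higher and 25.2% lower. With DESeq2 the adjusted p was weaker, at 4.78e-04 for Mreg, 8.20e-04 for Tff1 and 0.0302 for Mapt. The Tff1 value stays uncertain because of its antisense gene.

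**Figure D3:**
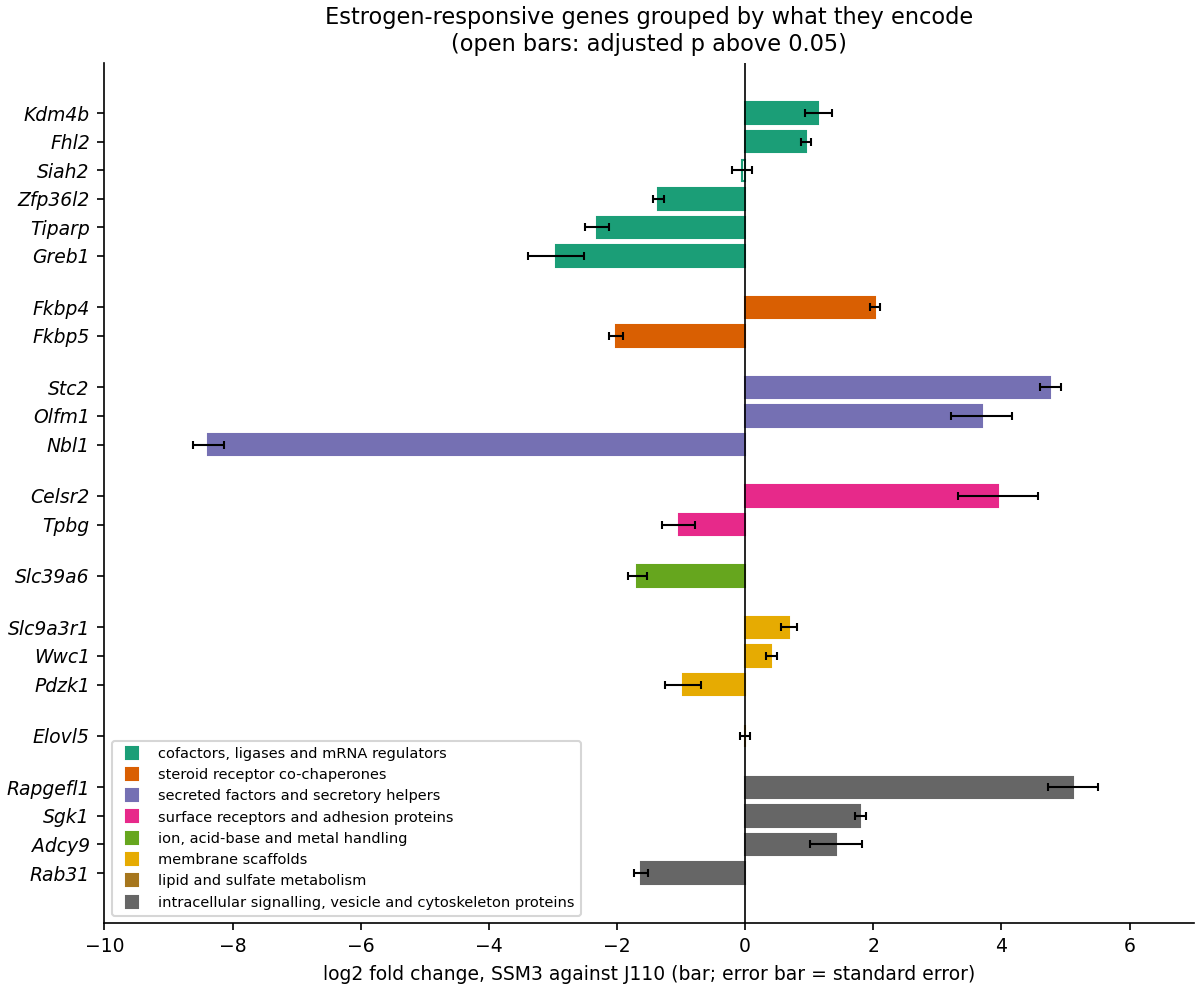
Log2 fold change (horizontal, SSM3 against J110) of the 22 tested genes, grouped and coloured by what they encode. Error bars are the approximate standard errors defined above, which can be too short where a line has few counts. Every group with at least 2 tested genes holds both a rise and a fall, and the changes run from -8.38 in Nbl1 to 5.12 in Rapgefl1.

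**Figure D4:**
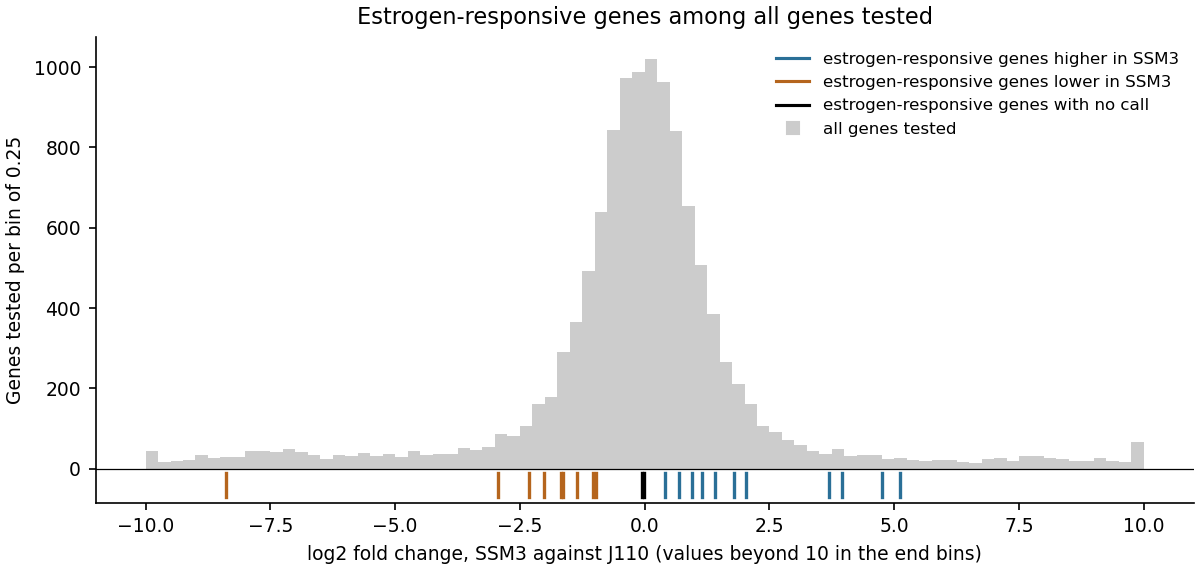
Histogram of the log2 fold change (SSM3 against J110) of the 12284 genes tested, in bins of 0.25, with a tick under the axis for each of the 22 estrogen-responsive genes. The ticks lie on both sides of 0, 11 called higher, 9 called lower and 2 with no call, and their median is 0.20.

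The receptor and its partner factors were read from the same fit. Of 12 such genes, 9 were tested, 7 were higher in SSM3 and none was lower, with a median log2 fold change of 0.85. The share called, 77.8%, is near the 77.9% of all genes tested, of which 38.6% were higher. A test for a change above 2-fold (edgeR's glmTreat) left 3 calls. Esr1 had 31, 15 and 10 counts in J110 against 222, 175 and 193 in SSM3, a log2 fold change of 3.48 (SE 0.24, edgeR adjusted p = 1.16e-09). Gata3, a luminal transcription factor, showed the largest rise of these, 8.30 on the log2 scale. Greb1, Tiparp and Slc39a6 were thus lower, and Stc2, Rapgefl1 and Celsr2 higher, in the line with more Esr1 transcript.

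A further 23 estrogen target genes that are not in the set also held both directions, with 19 tested, 11 higher, 8 lower and a median log2 fold change of 0.59. Their median size of change was 5.86 on the log2 scale, against 1.65 for the set, a difference that was not tested. Over all genes tested 38.6% were called higher and 39.2% lower. Cdh1 and Krt19 of this list were also counted among the epithelial markers. Pgr, the progesterone receptor, had 0, 0 and 2 counts in J110 against 1638, 1859 and 1719 in SSM3. Myb, a transcription factor, had no count in J110 and 412, 439 and 532 in SSM3, at least 162-fold higher against the floor. In the other direction, Igfbp4, which binds insulin-like growth factors, had 594, 593 and 485 counts in J110 against 5, 2 and 1 in SSM3. Egr3, an early growth response factor, had 34, 34 and 26 counts in J110 against none in SSM3, at least 9.83-fold lower. Named outside the rule, with their values known, because the study examined them beside Pgr, Cdh1 (E-cadherin), Trim25 (a ubiquitin ligase) and Ctsd (cathepsin D) were all called higher in SSM3. Their log2 fold changes were 8.42 for Cdh1, 1.82 for Trim25 and 0.24 for Ctsd. The Ctsd call was lost without J110 replicate 3, with a log2 fold change of 0.15 (edgeR adjusted p = 0.0785).

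**Figure D5:**
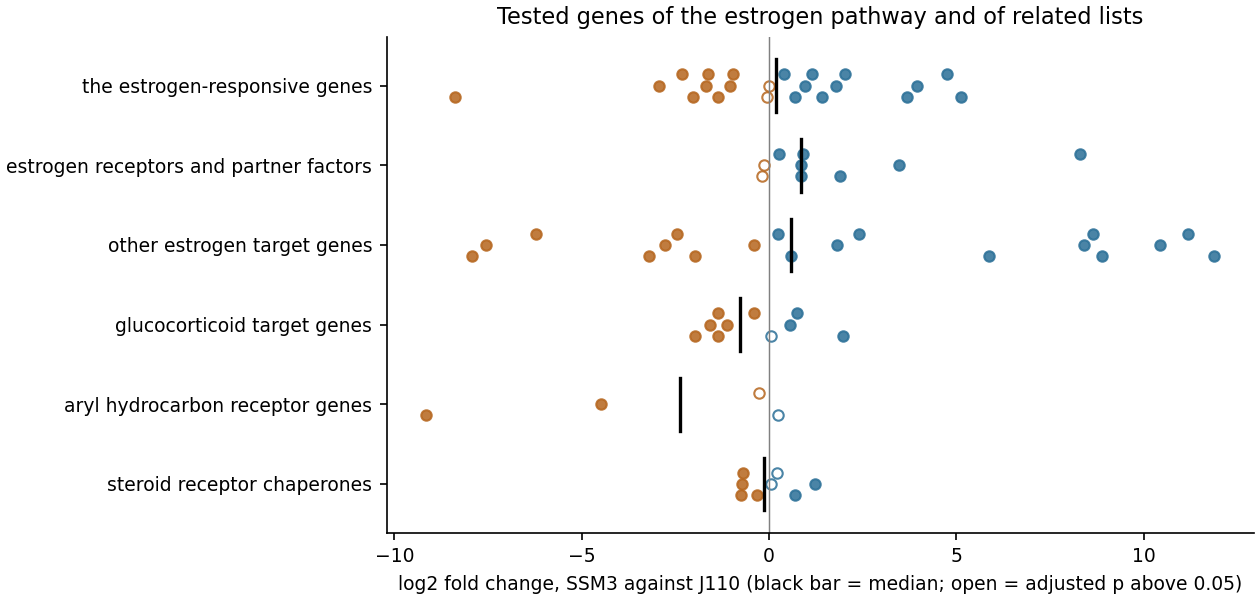
Log2 fold change (horizontal, SSM3 against J110) of the tested genes of the set and of 5 related lists, filled where the adjusted p was below 0.05, with a black bar at each median. The estrogen-responsive genes and the other estrogen targets spread to both sides of 0, with medians of 0.20 and 0.59, and no called gene among the receptors and partner factors lies below 0.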

How the data were processed

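RNA of 3 replicates each of J110 and SSM3 cells was analysed. Per the methods and the submitters' processing notes, the authors demultiplexed reads (bcl2fastq 2.17.1.14), trimmed them (cutadapt 2.1), mapped them to mm10 with HISAT2 2.0.4 and counted them per gene with featureCounts (Subread 2.0.0). The authors deposited raw counts of 52636 genes, and the strand setting and handling of overlapping genes are not given in the sources used here. The 6 columns were matched to samples by their labels. Symbols and coordinates came from GENCODE M21 (GRCm38), which matched 99.7% of the identifiers.

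The edgeR 4.0.16 functions filterByExpr and TMM set the genes tested and the scaling, before its test (quasi-likelihood, R 4.3.3, limma 3.58.1, Benjamini-Hochberg adjustment, threshold 0.05). The SE is the size of the log2 fold change divided by the square root of F, and was not read from the fit. The biological coefficient of variation was 8.30%. The test was tried on simulated counts first. The 35 genes, the gene lists and the naming rule (all 35 genes, and of each list the 2 called genes with the largest change in each direction) were chosen with earlier results of these data known. Lists were estrogen receptors and partner factors, other estrogen targets, glucocorticoid targets, aryl hydrocarbon receptor genes, steroid receptor chaperones, and epithelial, fibroblast, endothelial and leukocyte markers. Replicates of one line differed beyond sampling noise in every pair (chi-square over degrees of freedom at least 2.29). Alternatives covered DESeq2 1.42.0, limma-voom, scaling, filters, thresholds, a replicate block and leaving out libraries. Shared exons were found on GENCODE M21. One further check of the labels is not reported here.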

Additional observations from a re-analysis of the deposited data

How the results depend on the processing

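Of the 20 called estrogen-responsive genes, 13 kept their call and direction under every alternative that could test them, and none reversed. The other 7 lost the call under edgeR's glmTreat for a change above 2-fold, and Pdzk1 also with DESeq2 (adjusted p = 0.0502). The split of 11 higher and 9 lower was 6 and 7 of 22 genes tested under glmTreat. Over all it called 4272 of 12284 genes tested, and 49% of the called genes were higher. A filter of at least 10 counts in every library, which removes genes absent from one line, left 15 of the genes, with 7 higher and 6 lower, where 75.2% of the 9686 genes tested were called, 38% higher and 37.3% lower. Over all lists it called 36 of 44 genes tested, in place of 56 of 64. DESeq2 gave 12 and 10, with all 35 genes entered, including those with no count. Over all it called 9629 of 52636 genes entered, and 48.4% of the called genes were higher. Leaving out each library in turn gave 11 higher and 9 lower every time, from 9275 to 9572 genes called over all and from 56 to 57 over the lists. Without both J110 replicate 3 and SSM3 replicate 2, an alternative chosen after seeing the data, the split was also 11 and 9. With the replicate number as a block the split was 11 and 9, with 9481 genes called over all. Same-numbered libraries of the 2 lines deviated together only weakly, with correlations of 0.0124, 0.0156 and 0.0279 across genes, each higher than with the other numbers, so the numbers were not taken as pairs. Depth limits the 13 genes with few or no counts, for which levels under the floor were not detectable.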

Other observations

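Lists of genes that share regulators or partners with Fkbp4, Fkbp5, Sgk1 and Tiparp were read from the same comparison, as counts and values only. Of 12 glucocorticoid target genes, including the receptor gene itself, 10 were tested, 3 were higher and 6 lower in SSM3, and the median log2 fold change was -0.76. Of all genes tested 77.9% were called, 38.6% higher and 39.2% lower. Under glmTreat 5 of the 10 were called. Nr3c1, which encodes the glucocorticoid receptor, had 262, 274 and 294 counts in J110 and 61, 61 and 78 in SSM3, which is a difference of -1.98 on the log2 scale (SE 0.13). Dusp1, a MAP kinase phosphatase, fell by 1.58 on the log2 scale. Glul, glutamine synthetase, and Ddit4, an inhibitor of mTOR signalling, were higher by 1.98 and 0.76 on the log2 scale.

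Of 7 aryl hydrocarbon receptor genes, 4 were tested and 2 were lower in SSM3, as Tiparp was. The share called, 50%, is below the 77.9% of all genes tested. With library size only 3 of the 4 were called, and the filter of at least 10 counts in every library left 2 genes and 0 calls. Cyp1b1, a cytochrome P450 that hydroxylates estradiol, had 142, 131 and 138 counts in J110 and 2, 7 and 8 in SSM3. Aldh3a1, an aldehyde dehydrogenase, had 60, 67 and 91 counts in J110 and none in SSM3, at least 23.0-fold lower against the floor. Ahr itself stood at 15.4 ± 0.522 CPM in J110 against 12.8 ± 1.32 CPM (mean ± SD over 3 libraries), with a log2 fold change of -0.27 (SE 0.16, edgeR adjusted p = 0.138).

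The 8 steroid receptor chaperones were all tested, with 2 higher and 4 lower in SSM3 and a median log2 fold change of -0.13. The share called, 75%, is near the 77.9% of all genes tested, and glmTreat left 1 call. Stip1, the HSP90 co-chaperone HOP, rose from 100.4 ± 5.26 to 234 ± 9.44 CPM (mean ± SD over 3 libraries), and Dnajb1, an HSP40 protein, rose by 0.70 on the log2 scale. Ptges3, the co-chaperone p23, fell by 0.72 on the log2 scale. Hspa8 fell by 0.76 on the log2 scale, but the call was lost without J110 replicate 1 (adjusted p = 0.0598 from edgeR's test, log2 fold change -0.57), and its many near-identical copies make its counts uncertain.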
